A study of Mus musculus with 12 samples.

Results

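The Schlafen (Slfn) genes of the mouse were examined in 12 bulk RNA-seq libraries of Sp37A3, an immature dendritic cell (DC) line that was derived from mouse spleen. The members were the rows of the deposited count table with the symbols Slfn1, Slfn2, Slfn3, Slfn4, Slfn5, Slfn8 and Slfn9, which are 7 of 55401 genes. Control cells (CtrV) carried an empty CRISPR vector and are labelled SiglecE-expressing, and EKO cells carried a vector against Siglece, the gene of the inhibitory sialic acid receptor Siglec-E, and were a pool of several sorted clones. Each line was either left unpulsed or pulsed with the protein antigen ovalbumin (OVA), with 3 replicates in each of the 4 groups. All libraries, the control groups included, came from cells grown with GM-CSF and M-CSF and stimulated with lipopolysaccharide (LPS) for 24 h, so that none shows resting cells. Nothing in the labels says that the replicates were separate cultures, and the p-values measure only the spread between these samples.

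Schlafen genes form a rapidly evolving family of mammalian genes that lie side by side, and many of them are induced by type I interferon and by LPS. All share an N-terminal core with an AlbA-like domain, and the long members carry a helicase-like C-terminal part in addition. Members of the family restrain cell growth in lymphocytes and myeloid cells, and several bind or cleave tRNA or restrict viruses. In mice, Slfn1 and Slfn2 form the short group, Slfn3 and Slfn4 the intermediate group, and Slfn5, Slfn8 and Slfn9 the long group.

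The 7 genes were neighbours on chromosome 11 (GRCm38, GENCODE annotation) and spanned 263.8 kb, at chr11:82951349-83215154. From one end to the other the order was Slfn5 on the plus strand, Slfn9 and Slfn8 on the minus strand, and Slfn2, Slfn1, Slfn4 and Slfn3 on the plus strand. All 7 are annotated as protein-coding. To show where the best known interferon motif lay, the promoters that RefSeq gives for GRCm38.p6 (250 bases before to 50 bases after the transcript start) were searched on both strands for the core of the interferon-stimulated response element, which reads GAAA, any 2 bases and GAAA. This core was found in the promoters of 3 of the 7 members, all of the long group, and in 3.44% of all 32851 promoters. The matches are shown in capitals with 45 bases on each side, 5′ to 3′ in the direction of each gene.
Slfn5: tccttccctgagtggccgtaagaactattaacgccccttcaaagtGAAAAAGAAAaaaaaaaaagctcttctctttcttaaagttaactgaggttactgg
Slfn9: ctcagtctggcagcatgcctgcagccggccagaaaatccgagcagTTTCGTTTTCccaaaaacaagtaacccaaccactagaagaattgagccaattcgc
Slfn8: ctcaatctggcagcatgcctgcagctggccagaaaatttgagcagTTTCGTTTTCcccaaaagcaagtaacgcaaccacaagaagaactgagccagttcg

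The Slfn5 stretch is chr11:82951902-82952001 on the plus strand. Its match began 155 bases before the RefSeq start and ran into a row of A bases. The GENCODE annotation of Slfn5 begins earlier, at 82951349, so by that annotation the match lies inside the gene. The Slfn9 stretch is chr11:82991821-82991920 and the Slfn8 stretch chr11:83020804-83020903, both on the minus strand, with the motif read on the opposite strand of the gene. Their matches began 45 bases (Slfn9) and 48 bases (Slfn8) before the start, and for a second annotated start of Slfn8 the same match lay 136 bases before it. The Slfn8 and Slfn9 stretches are near copies of each other, with 51 of the 55 bases up to the end of the motif identical, and are not independent examples of a match. The promoters of Slfn1, Slfn2, Slfn3 and Slfn4 held no match of these letters. A second motif, the gamma-activated site (TTC, any 3 bases and GAA), was in none of the 8 member windows and in 8.3% of all promoters. A match is a description of the letters and does not show that a factor bound there.

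Several members resemble each other along their transcripts, which bears on every count. The 50-base stretches of each member's longest transcript were sought on both strands of the transcripts of other genes. Of these, 18.5% in Slfn3, 15.4% in Slfn8, 11.9% in Slfn9, 11.8% in Slfn5 and 11.6% in Slfn4 also occurred in another gene. In Slfn2 it was 4.27% and in Slfn1 0.606%. Slfn3 and Slfn4 shared stretches with each other, as did Slfn8, Slfn9 and the pseudogene Slfn10-ps. All 69 shared stretches of Slfn2 also occurred in Slfn4, which was far less abundant. Reads from any of these stretches could have been counted for either gene. In Slfn5, 8.84% of the exon bases are also covered by the antisense gene Slfn5os, which holds most of its shared stretches (7.88%). No source says if strand entered the counting. Slfn5os itself held at most 3 counts in any library, which does not show how reads of the shared bases were counted.

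The RNA of the targeted gene was not lower in the libraries labelled EKO. Siglece stood at 150 to 162 CPM (read counts relative to library size) in the unpulsed and at 152 to 163 CPM in the OVA-pulsed CtrV libraries. In the libraries labelled EKO it stood at 166 to 235 CPM unpulsed and at 174 to 208 CPM OVA-pulsed, above every CtrV library. RNA counts do not measure the protein, and the paper reports that the pooled EKO clones had little or no Siglec-E. The RNA therefore does not check the knockout, and directions below are those between the libraries labelled EKO and CtrV. Library totals were 27116201 to 39698572 counts, so that 3 counts, the lower limit set for detection, correspond to 0.0784 to 0.11 CPM. All 12 DC markers examined were measured, among them Itgax at 822 to 1090 CPM, while Flt3 and Batf3 were low, down to 0.996 and 2.45 CPM. The 4 neutrophil markers were at 0 in every library, and T cell, B cell, NK cell and fibroblast markers summed to at most 1.07 CPM. Of 3 epithelial markers only Epcam was tested, and their sum was 20.8 to 27.1 CPM in CtrV and 25.2 to 33.0 CPM in EKO-labelled libraries. The 6 macrophage markers summed to 1520 to 1700 CPM in CtrV and to 2070 to 2240 CPM in the EKO-labelled libraries, with Mrc1 at 0 throughout. The macrophage sum thus was higher in the EKO-labelled libraries, as the epithelial sum tended to be. From unpulsed CtrV to unpulsed EKO-labelled cells, mean CPM went from 608 to 862 for Csf1r and from 305 to 632 for C1qa. Adgre1 (639 and 640) and Mertk (2.84 and 2.36) were not raised. Of the DC markers, Irf8 (91.9 to 198), Batf3 (3.44 to 8.65), Flt3 (1.78 to 3.82) and H2-Aa (2630 to 3850) were higher. Itgax, Csf2rb and Cd74 were lower. The shift thus was not limited to macrophage markers, and the part of these markers in the Schlafen results was not tested. In bulk RNA, fewer cells that express a gene and less RNA per cell cannot be told apart.

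Per kilobase of exon, Slfn2 was the most abundant member in all 4 groups, followed by Slfn5, Slfn8, Slfn9 and Slfn3. In unpulsed CtrV cells these means were 147 ± 7.67 CPM per kb (SD, n = 3) for Slfn2, 13.9 ± 1.37 for Slfn5, 10.2 ± 1.51 for Slfn8, 9.28 ± 1.16 for Slfn9 and 4.72 ± 0.77 for Slfn3. Slfn4 and Slfn1 were the least abundant, at 0.886 ± 0.0868 and 0.15 ± 0.037 CPM per kb. Libraries of Slfn8 and Slfn9 overlapped in 3 of the 4 groups, and those of Slfn5 and Slfn8 overlapped in OVA-pulsed CtrV cells. Over the libraries of a group, these neighbours in the order thus stood within the spread of the libraries there. Within each single library, Slfn8 was nevertheless above Slfn9 in all 12 and Slfn5 above Slfn8 in the 3 OVA-pulsed CtrV libraries. The order of the last members was different in the EKO-labelled cells, where Slfn1, at 1.63 ± 0.251 CPM per kb unpulsed, stood above Slfn4, at 1.33 ± 0.326, with overlapping libraries.

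**Figure D1:**
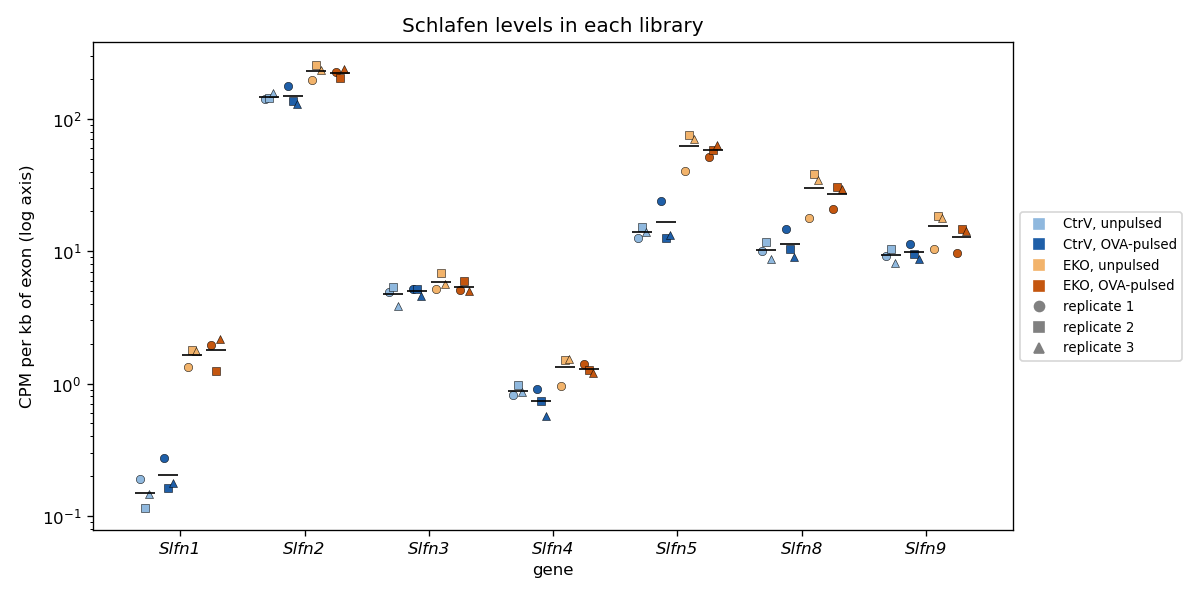
Level of each Schlafen gene in every library, in CPM per kb of exon on a log axis; points are libraries, marker shapes are replicate numbers and horizontal lines are group means. Slfn2 sits highest in every group, and the EKO-labelled libraries of Slfn1, Slfn2, Slfn5 and Slfn8 lie above all CtrV libraries.

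The comparison of EKO-labelled with CtrV cells sets a line labelled Siglec-E-deficient against its vector control, both LPS-stimulated. Each genotype was a single line, and the EKO-labelled line was a pool of sorted clones. Loss of Siglec-E therefore cannot be told apart from other differences between the lines. In OVA-pulsed cells, Slfn1, Slfn2, Slfn4, Slfn5 and Slfn8 rose in the EKO-labelled libraries (5 of 7 members), by 1.51-fold to 8.5-fold, while Slfn3 and Slfn9 did not pass the test. A call is an adjusted p under 0.05 in edgeR's quasi-likelihood test over all tested genes. In the same comparison 47% of all 14079 tested genes were called, 25.1% with a rise. In unpulsed cells all 7 members rose, by 1.25-fold to 10.8-fold, where 46.4% of all tested genes were called and 24.5% rose. The lines thus differed widely, and the counts of members must be read against these shares. The median log2 fold change was 0.799 over the members with OVA and 0.717 without, against 0.001 and 0.0 over all tested genes. Slfn1 entered the test only through the EKO-labelled libraries, since all 6 of its CtrV libraries were under the filter of a log2 CPM of 0, and the other 6 members were above it in all 12 libraries.

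In OVA-pulsed cells, every EKO-labelled library stood above every CtrV library for the same 5 members, and for 27% of all tested genes. In unpulsed cells this held for 4 members (Slfn1, Slfn2, Slfn5 and Slfn8) and for 24.1% of all tested genes. Slfn3, Slfn4 and Slfn9 passed the test in unpulsed cells although the libraries of the lines overlapped. All 7 fold changes were above 0 in both comparisons and under every alternative setting run.

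**Figure D2:**
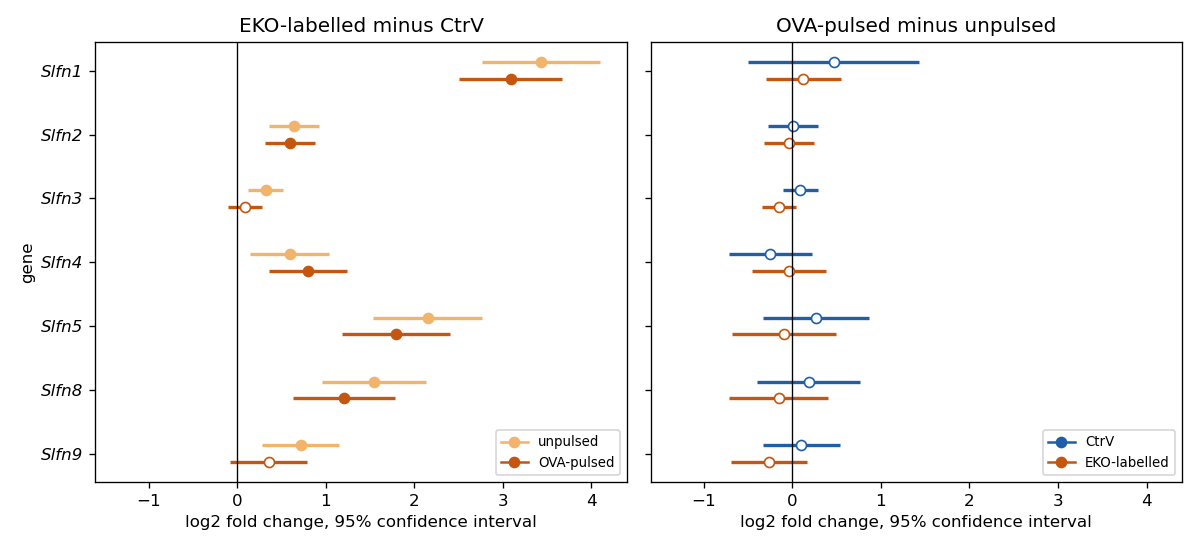
Log2 fold change of each Schlafen gene with its 95% confidence interval, EKO-labelled minus CtrV on the left and OVA-pulsed minus unpulsed on the right; filled circles passed an adjusted p of 0.05 and open circles did not. Slfn1, Slfn5 and Slfn8 lie above 1 on the left, and every interval on the right includes 0.

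Of the short group, Slfn1 is the founding member and is known for growth arrest of developing T cells. It was barely seen in CtrV cells, at 0.352, 0.215 and 0.274 CPM in unpulsed replicates 1, 2 and 3 and at 0.513, 0.302 and 0.331 CPM after OVA, which is 6 to 19 counts a library. In EKO-labelled cells it reached 2.49, 3.33 and 3.27 CPM unpulsed and 3.66, 2.31 and 4.05 CPM after OVA, or 68 to 140 counts. The lowest EKO-labelled library was above the highest CtrV library. The log2 fold change was 3.09 ± 0.26 (SE) with OVA (adjusted p = 5.7e-06) and 3.43 ± 0.30 without (adjusted p = 7.4e-06). No other member had as large a fold change or as few counts in CtrV.

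Slfn2 keeps T cells and monocytes quiescent, and in T cells it protects tRNA from cleavage. It stood at 235, 239 and 259 CPM in unpulsed and at 294, 228 and 217 CPM in OVA-pulsed CtrV cells. The EKO-labelled libraries held 325, 427 and 391 CPM unpulsed and 377, 341 and 395 CPM after OVA. The groups did not overlap, and OVA-pulsed CtrV replicate 1 was the control library nearest to them. The fold was 1.51 with OVA (95% confidence interval 1.24 to 1.83, adjusted p = 0.0031) and 1.56 without (1.28 to 1.9, adjusted p = 0.002).

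Of the intermediate group, Slfn4 is a myeloid gene that is induced by interferon and Toll-like receptor ligands. In CtrV cells it stood at 3.24, 3.9 and 3.4 CPM unpulsed and at 3.62, 2.93 and 2.25 CPM after OVA. In EKO-labelled cells the values were 3.77, 5.96 and 6.05 CPM unpulsed and 5.59, 5.04 and 4.76 CPM after OVA. With OVA the groups were apart, whereas unpulsed EKO-labelled replicate 1 lay below the highest CtrV library. The log2 fold change was 0.80 ± 0.20 with OVA (adjusted p = 0.0072) and 0.59 ± 0.20 without (adjusted p = 0.033). Slfn4 shares stretches with Slfn2, which stood at 217 CPM or more in every library. The part of Slfn2 reads in the Slfn4 counts was not tested. Without OVA the call of Slfn4 was lost when unpulsed CtrV replicate 1, 2 or 3 or unpulsed EKO-labelled replicate 2 or 3 was left out, with adjusted p between 0.067 and 0.17.

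Slfn3, which is known from T cells and from the differentiation of gut epithelium, moved least. It stood at 16.7, 18.3 and 13.2 CPM in unpulsed and at 17.7, 17.8 and 15.6 CPM in OVA-pulsed CtrV cells. In EKO-labelled cells it stood at 17.5, 23.3 and 19.4 CPM unpulsed and at 17.3, 20.1 and 17.0 CPM after OVA. The lines overlapped in both states. With OVA the log2 fold change was 0.09, with a 95% confidence interval of -0.11 to 0.28 (adjusted p = 0.45). Without OVA it was 0.32 ± 0.09 (adjusted p = 0.012). That call was lost without the replicate number in the model (adjusted p = 0.077), with only the 6 unpulsed libraries (0.051), and without CtrV replicate 3 (0.058) or EKO-labelled replicate 2 (0.059) or 3 (0.062). When the counts of Slfn3 and Slfn4 were summed because of their shared stretches, the log2 fold change with OVA was 0.22 and was not called (adjusted p = 0.084).

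Of the long group, Slfn5 is an interferon-induced nuclear protein. It stood at 79.2, 96.6 and 88.5 CPM in unpulsed CtrV cells and at 150, 79.8 and 84.3 CPM after OVA. In EKO-labelled cells it reached 254, 477 and 448 CPM unpulsed and 328, 371 and 402 CPM after OVA. All 6 EKO-labelled libraries lay above all 6 CtrV libraries, with OVA-pulsed CtrV replicate 1 the highest of the controls. The log2 fold change was 1.79 ± 0.28 with OVA (adjusted p = 0.00037) and 2.15 ± 0.28 without (adjusted p = 0.00012), or 3.46-fold and 4.44-fold.

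Slfn8, a long member of rodents that is expressed in immune cells, stood at 40.8, 48.2 and 35.9 CPM in unpulsed and at 59.7, 42.2 and 37.1 CPM in OVA-pulsed CtrV cells. In EKO-labelled cells it reached 72.9, 158 and 140 CPM unpulsed and 84.5, 124 and 122 CPM after OVA. The lines did not overlap, and in both EKO-labelled groups replicate 1 was the lowest. The log2 fold change was 1.21 ± 0.26 with OVA (adjusted p = 0.0031) and 1.55 ± 0.26 without (adjusted p = 0.00076).

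Slfn9, the member that shares the most stretches with Slfn8, stood at 55.2, 62.3 and 48.5 CPM in unpulsed and at 67.2, 57.0 and 51.9 CPM in OVA-pulsed CtrV cells. In EKO-labelled cells the values were 61.3, 110 and 106 CPM unpulsed and 57.4, 87.7 and 85.6 CPM after OVA. Replicate 1 of both EKO-labelled groups fell among the CtrV libraries, whereas replicates 2 and 3 stood above them. With OVA the log2 fold change was 0.36, with a 95% confidence interval of -0.08 to 0.79 (adjusted p = 0.16), and without OVA it was 0.72 ± 0.20 (adjusted p = 0.012). With OVA, Slfn9 was called when CtrV replicate 1 was left out (log2 fold change 0.63, adjusted p = 0.012) and when both EKO-labelled replicate 1 libraries were left out (0.62, adjusted p = 0.00047). Summed counts of Slfn8 and Slfn9, which share stretches, had a log2 fold change of 0.80 with OVA and were called (adjusted p = 0.014), below the 1.21 of Slfn8 alone. Without OVA, the call was lost without CtrV replicate 3 (adjusted p = 0.068) or EKO-labelled replicate 2 (0.058) or 3 (0.063).

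The make-up of the family differed between the lines. Summed over the 7 members, the level was 409 to 593 CPM in CtrV and 736 to 1200 CPM in the EKO-labelled libraries. Slfn2 took 49.5% to 57.7% of that sum in CtrV and 35.1% to 44.1% in EKO-labelled libraries, and Slfn5 took 18.4% to 25.4% and 34.5% to 40.2%. Within a library, where the scaling between libraries plays no part, the ratio of Slfn8 to Slfn9 per kilobase was 1.04 to 1.3 over the 6 CtrV libraries and 1.74 to 2.15 over the 6 EKO-labelled libraries. The ratio of Slfn5 to Slfn9 was 1.32 to 2.11 in CtrV and 3.9 to 5.38 in EKO-labelled libraries. The ratio of Slfn4 to Slfn3 was 0.124 to 0.176 in CtrV and 0.215 to 0.277 in EKO-labelled libraries with OVA, without overlap. Unpulsed it was 0.167 to 0.221 and 0.185 to 0.268, with overlap, and it was higher in the EKO-labelled library of all 6 same-numbered pairs. Neighbouring and similar members thus differed in how far they stood apart between the lines, and these ratios are given without a test.

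Replicate 1 stood out from replicates 2 and 3 in several groups. In unpulsed EKO-labelled cells replicate 1 was the lowest library for 7 of 7 members, as it was for 38.9% of all tested genes. Its level was 0.489 times the mean of replicates 2 and 3 for Slfn8, 0.549 times for Slfn5 and 0.568 times for Slfn9. In OVA-pulsed EKO-labelled cells replicate 1 was lowest for Slfn5, Slfn8 and Slfn9 (37.9% of all tested genes), at 0.848, 0.687 and 0.662 times the others. In OVA-pulsed CtrV cells replicate 1 was instead the highest library for 6 of 7 members, Slfn3 excepted, and for 36.9% of all tested genes. There, Slfn5 was 1.83 times and Slfn8 1.51 times the mean of the other replicates.

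The difference between same-numbered libraries of the lines was smallest for replicate 1 in 7 of 7 members, both with and without OVA, a pattern that 19.3% of all tested genes showed in both states. For Slfn8 the log2 difference after OVA was 0.50 in pair 1 against 1.56 and 1.71 in pairs 2 and 3, and for Slfn9 it was -0.23 against 0.62 and 0.72. Some of these libraries also stood apart in interferon genes. Over 35 interferon-stimulated genes, replicate 1 differed from the mean of replicates 2 and 3 by a median of -0.85 log2 units in unpulsed EKO-labelled cells (33 of 35 lower) and by 0.67 in OVA-pulsed CtrV cells (35 of 35 higher). The medians of the members were -0.66 and 0.48 in the same libraries. In the other groups the median shift was -0.23 for the interferon-stimulated genes against -0.03 for the members in unpulsed CtrV. In OVA-pulsed EKO-labelled cells it was -0.24 against -0.09. Single members moved apart there, with Slfn9 at -0.59, Slfn8 at -0.54, Slfn5 at -0.24 and Slfn3 at -0.09. Slfn2 was at 0.04, Slfn4 at 0.19 and Slfn1 at 0.25. In unpulsed CtrV the members ranged from -0.22 for Slfn5 to 0.44 for Slfn1. The 14 tested genes of type I interferon signalling had medians of -0.10 in unpulsed EKO-labelled and 0.38 in OVA-pulsed CtrV replicate 1. Ifnb1, the gene of interferon beta, stood at 0.842 CPM in unpulsed EKO-labelled replicate 1, against 6.76 and 3.45 CPM in replicates 2 and 3. In OVA-pulsed CtrV replicate 1, where the members were high, Ifnb1 was at 0.189 CPM, close to 0.121 and 0.132 CPM in the other replicates. The part of these values in the Schlafen results was not tested. With both EKO-labelled replicate 1 libraries left out, 6 of 7 members were called with OVA and 7 of 7 without, where 5973 and 6199 genes in all were called.

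**Figure D3:**
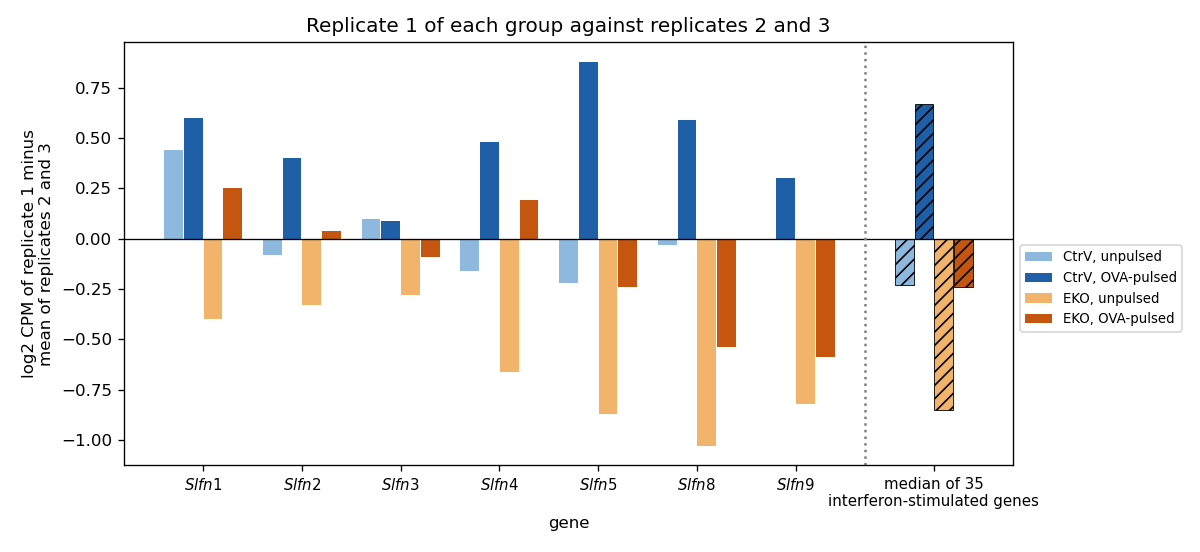
Log2 CPM of replicate 1 minus the mean of replicates 2 and 3 in each group, for each Schlafen gene and, hatched, as the median of 35 interferon-stimulated genes. Unpulsed EKO-labelled bars are below 0 for all 7 members, down to -1.03 for Slfn8, and OVA-pulsed CtrV bars are above 0, up to 0.88 for Slfn5.

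The comparison of OVA-pulsed with unpulsed cells asks what antigen adds to LPS. In edgeR's quasi-likelihood test, 0 of 7 members were called in CtrV cells, in EKO-labelled cells and in the test of whether the line difference depended on OVA, as was 0% of all 14079 tested genes in each of these tests. At an unadjusted p under 0.05 there were 231 genes in CtrV, 394 in EKO-labelled cells and 269 for the dependence, none of them a member. These are 1.64%, 2.8% and 1.91% of all tested genes, fewer than a limit of 0.05 would pass if no gene changed. DESeq2 and limma voom also called 0 genes, with 44 to 156 and 246 to 423 genes at that unadjusted limit. For Slfn2, the most abundant member, the fold with OVA was 1.01 in CtrV (95% confidence interval 0.828 to 1.22) and 0.973 in EKO-labelled cells (0.801 to 1.18). For Slfn3 it was 1.07 (0.93 to 1.22) and 0.903 (0.79 to 1.03).

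Intervals of the more variable members were wider. Slfn5 had a fold with OVA of 1.2 in CtrV (0.793 to 1.82) and 0.938 in EKO-labelled cells (0.625 to 1.41), and Slfn8 of 1.14 (0.759 to 1.7) and 0.9 (0.611 to 1.32). For Slfn9 the folds were 1.07 (0.793 to 1.45) and 0.835 (0.62 to 1.12), and for Slfn4 0.843 (0.608 to 1.17) and 0.973 (0.729 to 1.3). Slfn1 had the widest interval, 1.38 in CtrV (0.709 to 2.69), where its counts were lowest. The OVA-pulsed and unpulsed libraries of each line overlapped for every member. In simulated counts, 82% of genes changed 1.5-fold and 96% of genes changed by a factor of 2 were called in these comparisons. The simulation had no replicate effect and changed genes picked at random. Its rates therefore do not say how often such a change of a single member would be called, least of all for members with wide intervals.

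The other tested Schlafen gene of the table, the pseudogene Slfn10-ps between Slfn8 and Slfn2, rose in the EKO-labelled cells from 6.07 ± 2.2 to 15.2 ± 2.24 CPM with OVA (log2 fold change 1.34 ± 0.19, adjusted p = 0.00018) and from 5.45 ± 1.1 to 13.3 ± 1.63 CPM without (1.29 ± 0.19, adjusted p = 0.00034). Its stretches are partly shared with Slfn8 and Slfn9, and its counts are uncertain to that extent. Unlike those genes it was not lowest in replicate 1 of the EKO-labelled groups, with 14.8, 13.7 and 11.6 CPM unpulsed and 16.6, 12.7 and 16.5 CPM after OVA. Slfn14, a long member of the blood lineages, Slfnl1 and Slfn5os had at most 3 counts in any library and were not tested.

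Genes next to the cluster were examined within 500 kb on each side. Between the members, the processed pseudogene Gm11425 beside Slfn8 stood at 41.2 CPM in OVA-pulsed CtrV and 40.5 CPM in OVA-pulsed EKO-labelled cells (log2 fold change -0.03 ± 0.08, adjusted p = 0.8). On the Slfn5 side, 0 of 5 tested genes (Zfp830, Lig3, Rffl, Rad51d and Nle1) were called in either comparison, with log2 fold changes of -0.11 to 0.21. The next tested genes beyond Slfn3, AI662270 and Gm11427, had log2 fold changes of -0.07 and -0.16 with OVA, of which that of Gm11427 was called (adjusted p = 0.038). Gm11427 is a pseudogene that holds 7.9% of the 50-base stretches of Slfn3 and 4.12% of those of Slfn4, and its counts are uncertain to that extent. The tested genes directly beside the cluster thus differed little, with that limit for Gm11427. Farther out, the chemokine genes Ccl5, Ccl3 and Ccl4 rose by 3.37, 3.30 and 3.38 on the log2 scale with OVA, and Ccl6 fell by 0.94. Heatr9 and Wfdc17, which are not chemokine genes, also rose there, by 2.7 and 2.38 with OVA. In all, 11 of 19 tested neighbours rose and 2 fell with OVA, and 9 rose and 1 fell without. These neighbours include Slfn10-ps, which rose in both comparisons. Of all tested genes, 25.1% rose with OVA and 24.5% without.

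**Figure D4:**
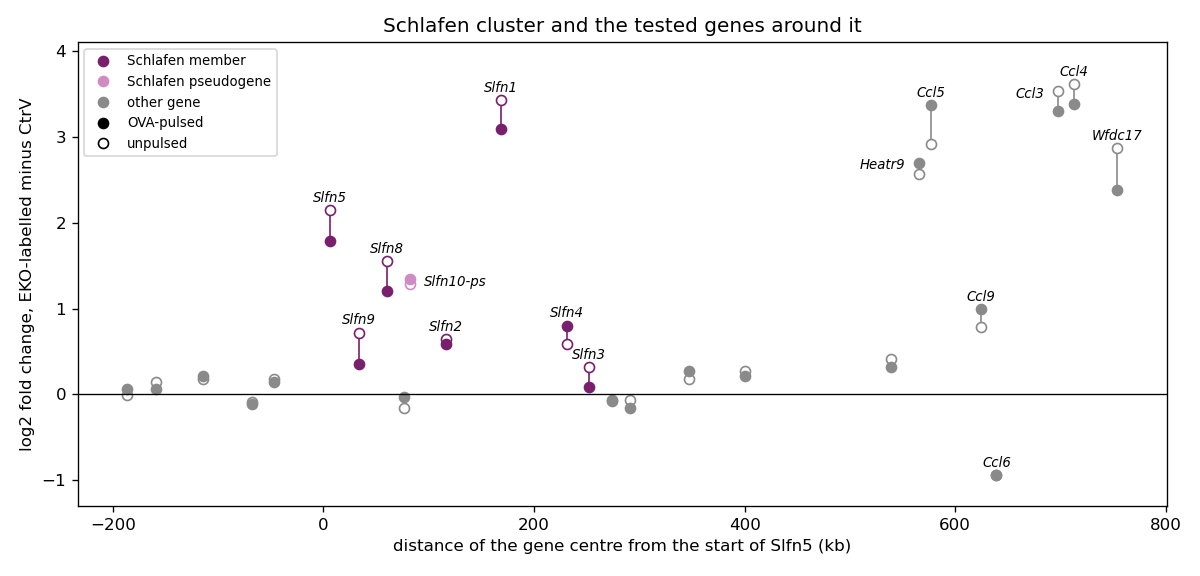
Log2 fold change of EKO-labelled against CtrV cells for every tested gene of the cluster and within 500 kb of it, by distance of the gene's centre from the start of Slfn5 in kb; filled circles are OVA-pulsed and open circles unpulsed cells. The 5 tested genes before Slfn5 lie between -0.11 and 0.21, the members lie between 0.09 and 3.43, and the chemokine genes Ccl3, Ccl4 and Ccl5 lie at 2.92 or more.

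Genes of the pathways in which Schlafen proteins are placed were counted from lists compiled by hand. Over all tested genes, 25.1% rose with OVA and 24.5% without, and 47% and 46.4% were called in either direction. Of 35 tested interferon-stimulated genes, 34 rose with OVA and 35 without, with a median log2 fold change of 1.35 and 1.59, and none fell. Oasl1, an oligoadenylate synthetase-like protein, rose from 3.86 ± 1.45 to 64.1 ± 5.92 CPM with OVA (log2 fold change 4.02 ± 0.31, adjusted p = 2.7e-06). Gbp2, a guanylate-binding protein that was abundant in both lines, rose by 0.40 ± 0.15 on the log2 scale (adjusted p = 0.045).

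Of 14 tested genes of type I interferon signalling, 9 rose and 1 fell with OVA, and 10 rose and 1 fell without. Ifnb1 rose from 0.147 ± 0.0365 to 2.92 ± 0.664 CPM with OVA (log2 fold change 4.29 ± 0.55, adjusted p = 0.0001). The receptor chain gene Ifnar2 fell by 0.31 on the log2 scale (adjusted p = 0.0014). Of 10 tested genes of RNA restriction and tRNA cleavage, 7 rose and 1 fell in each comparison. Among them Isg20, an exonuclease, rose by 1.95 ± 0.34 on the log2 scale with OVA (adjusted p = 0.00078). Of 18 tested growth regulators, 1 rose and 7 fell with OVA, and 2 rose and 7 fell without. Called genes of either direction were thus about as common in this list as over all tested genes. Most called genes of the list fell, whereas of all called genes 53.3% rose with OVA and 52.7% without. This difference in direction was not tested. Ccnd2 rose by 1.12 ± 0.15 and Ccnd3 fell by 1.08 on the log2 scale with OVA, while Ccnd1, a cyclin that has been linked to Schlafen proteins, had a log2 fold change of -0.08 ± 0.10 (adjusted p = 0.56).

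Across the 12 libraries, the members' log2 CPM had pairwise Pearson correlations of 0.52 to 0.98, with a median of 0.83 over 21 pairs. These points share the 4 groups and the library scaling, and the correlations are given as a description. After the group means were removed the correlations were -0.10 to 0.97 with a median of 0.68, highest for Slfn8 with Slfn9 and lowest for Slfn1 with Slfn3. The median correlation with the 35 interferon-stimulated genes was 0.98 for Slfn5, 0.97 for Slfn2, 0.96 for Slfn8, 0.94 for Slfn1, 0.89 for Slfn4, 0.83 for Slfn9 and 0.60 for Slfn3. Between the members and all other tested genes that median was -0.02 or -0.01. Group means were kept in these medians, which therefore include the difference between the lines. Nearly all of the 35 genes rose in the EKO-labelled cells, whereas fold changes over all tested genes lay about evenly above and below 0. A median near 0 over all genes is thus no measure of a closer tie to interferon genes. Whether the members followed the 35 genes more closely than other rising genes did was not tested.

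The genes with the most similar pattern were sought among the 14072 other tested genes, over the same 12 libraries. For Slfn5 they included Nlrc5 (r = 0.997), for Slfn8 they were Gm4070 (r = 0.997) and Trim21 (r = 0.996), and for Slfn9 Lpl (r = 0.976) and Cybb (r = 0.97). For Slfn1 they were Bcl2l1 and Gab2 (r = 0.995 each), for Slfn2 H2-T22 (r = 0.994) and Trex1 (r = 0.989), for Slfn4 Gm35638 (r = 0.972) and Gm8641 (r = 0.958), and for Slfn3 Hinfp (r = 0.963) and Twistnb (r = 0.927). Patterns like that of Slfn5 were common, with 585 genes at r above 0.95, as were those like Slfn1 (690 genes), Slfn8 (297) and Slfn2 (229). For Slfn9, Slfn4 and Slfn3 there were 5, 2 and 1 such genes. With group means removed, the most similar genes of 6 members were H2-T24 for Slfn5 (r = 0.993), Grap2 for Slfn9 (r = 0.994), Sp140 for Slfn2 (r = 0.989), Gm4070 for Slfn8 (r = 0.986), Zfp868 for Slfn3 (r = 0.967) and Pold4 for Slfn1 (r = 0.942).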

How the data were processed

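RNA of 12 libraries was prepared with a stranded mRNA kit. Per the labels and the study's methods, the authors aligned reads to mm10 with STAR, kept a single alignment of reads that matched as many as 10 places, counted reads on gene exons with featureCounts, and deposited raw counts per gene. Whether counting used the strand, and the read length, are not given in the sources used here. All 12 columns were used. Genes with log2 CPM above 0 (prior count 2) in at least 2 libraries were tested, 14079 of 55401. Counts were scaled by TMM and fitted with edgeR 4.0.16 (quasi-likelihood, R 4.3.3) over all 12 libraries with group and replicate number as covariates, and p-values were adjusted by the Benjamini-Hochberg method over all tested genes. Symbols, lengths and positions came from GENCODE release 21 of GRCm38, which gave 55141 identifiers a symbol, and promoters from RefSeq GRCm38.p6. CPM per kb used the union of a gene's exons.

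Same-numbered libraries of the lines had correlated deviations from their group means with OVA (0.448, 0.292 and 0.289 for replicates 1, 2 and 3), and less so without (0.0602, -0.0118 and 0.263). The replicate number comes from the labels and is a covariate in the study's methods. Replicates of each group differed by more than counting noise (chi-square per degree of freedom 4.58 to 41.8). The members, gene lists, motifs and named genes were chosen with earlier results of these data known. Named besides the members were, by rule, the largest rise and fall and the most abundant genes of each list and the genes with the highest correlations; neighbours and interferon genes named beyond that were chosen after their values were seen. Alternatives were DESeq2 1.42.0, limma 3.58.1 (voom), RLE and upper-quartile scaling, other filters, no replicate block, the compared libraries alone, bias-adjusted deviances, a fold limit, each library left out, both EKO-labelled replicate 1 libraries left out, summed counts of similar members and, added after seeing the data, TMM over all genes with a count. The fit was tested on simulated counts. Confidence intervals come from the fit and include the spread between replicates, whereas the limit of 3 counts covers counting error only. A few genes that the rule selects are not reported here.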

Additional observations from a re-analysis of the deposited data

How the results depend on the processing

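In EKO-labelled against CtrV cells, all 7 members kept their direction under every alternative run. With OVA the count of called members stayed within 4 to 6 except with an absolute log2 fold change of at least 1, which left 3 members and 1268 genes. Without OVA that limit left 3 members and 1241 genes. Leaving out each library in turn gave 5 to 6 called members with OVA (5171 to 6993 genes in all) and 4 to 7 without (5364 to 6476 genes), with 4 when unpulsed CtrV replicate 3 or EKO-labelled replicate 2 or 3 was left out. At least 10 counts in every library removed Slfn1 from the test.

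Without the replicate block, 5 members and 5413 genes were called with OVA and 6 members and 5337 genes without, against 6619 and 6537 genes with the block. The block changed the call of Slfn3 without OVA (log2 fold change 0.32, adjusted p = 0.077 without it) and no other call of a member.

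No OVA effect was called under any alternative, and signs of values near 0 changed. In CtrV, Slfn2 went to -0.013 with upper-quartile scaling, to -0.002 with voom and with only the compared libraries, and to -0.001 without both EKO-labelled replicate 1 libraries, and summed Slfn3 and Slfn4 gave 0.035 in place of the negative Slfn4 value. Without both EKO-labelled replicate 1 libraries, Slfn1 in EKO-labelled cells went to -0.068 and the dependence of Slfn4 on OVA to -0.038, which was -0.158 for the summed counts. Leaving out each library in turn gave ranges in CtrV of -0.18 to 0.13 for Slfn2, -0.25 to 0.52 for Slfn5, -0.26 to 0.38 for Slfn8 and -0.19 to 0.23 for Slfn9. In EKO-labelled cells they were -0.11 to 0.40 for Slfn1, -0.18 to 0.095 for Slfn2, -0.29 to 0.16 for Slfn4, -0.38 to 0.11 for Slfn5 and -0.44 to 0.031 for Slfn8. For the dependence they were -0.18 to 0.14 for Slfn2, -0.032 to 0.47 for Slfn4, -0.61 to 0.19 for Slfn5 and -0.60 to 0.13 for Slfn8. Of the 6 positive CtrV values, 4 (Slfn2, Slfn5, Slfn8 and Slfn9) turned negative without OVA-pulsed CtrV replicate 1. The cause was not tested. Scaling moved the median of the members' log2 fold changes by at most 0.05. Per kilobase of the longest transcript, Slfn3 stood at 5.68 CPM in unpulsed CtrV cells.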
